A study of Homo sapiens with 9 samples.

Results

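The genes described here encode the proteins that copy DNA and that mark the passage of cells from G1 into S phase. They were taken as a list of 49 gene symbols, from origin licensing factors to the replication polymerases, and were followed in 9 samples of MCF10A cells, an immortalized and non-tumorigenic human mammary epithelial line. Of the 49, 43 were measured, meaning that a probe annotated with that gene was above background (detection p under 0.01) on at least 3 of the 9 arrays. The whole array gave 8931 measured genes of 18852 annotated ones. All 9 samples had received a hairpin by lentivirus and had gone through puromycin selection. The 3 control samples carried a scramble hairpin, and 3 samples each carried sh-34 or sh-35, short hairpin RNAs directed at RND1, which encodes a small GTPase. The labels name no harvest time, cell number, growth rate or clone. Nor do they state that a group's samples were cultured separately, so each p-value speaks only of the spread among these samples, part of which may be technical.

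DNA replication begins when the origin recognition complex, with CDC6 and CDT1, loads the MCM helicase onto DNA in G1. In S phase the helicase is switched on by CDC45 and the GINS complex, primase and the polymerases copy both strands, and the sliding clamp PCNA, placed by its loader RFC, holds the polymerases on DNA. Transcription of most of these genes is known to be driven by E2F factors and rises as cells enter S phase, so their messenger RNA is commonly read as a sign of proliferation. In RNA from a whole culture, a larger share of cells in S phase and more transcript in each cell cannot be told apart.

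The array gave 11473 to 12902 probes above background per sample, 23.5% to 26.4% of 48803, and no sample stood apart by that measure. Of the markers of the mammary epithelial line, 9 of 12 were measured, KRT5, KRT14 and CDH1 among them, while KRT17, KRT6A and TP63 had no single-gene probe here. Their summed deposited signal was 48900 to 55690 in scramble, 32360 to 34330 in sh-34 and 31350 to 35220 in sh-35 arrays, lower with both hairpins. Of 12 markers of leukocytes, endothelium and fibroblasts, only PECAM1 and DCN were measured. PTPRC, CD3E, CD79A, VWF, CDH5, COL1A2, PDGFRB and LUM were above background on 0 arrays and COL1A1 on 1. The summed deposited signal of these markers of other cells was 4649 to 6020 in scramble, 3420 to 4314 in sh-34 and 6440 to 6965 in sh-35 arrays. It was highest with sh-35. Of the 2 measured markers, DCN had a mean log2 signal of 12.1 and read −0.37 with sh-34 and +0.53 with sh-35. PECAM1 read +0.09 and +0.26. With so few measured, the sum is no reading of other cell types at large. The part of either sum in the results below was not tested. RND1 itself was above background on 0 of 9 arrays, with signals of 27.7 to 49.6, so the knockdown could not be checked.

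With sh-35, most of the replication list rose. Of the 43 measured members, 38 were higher than in scramble, 1 was lower and 4 did not pass the threshold, a limma adjusted p under 0.05 over all 8931 genes. Over all genes, 20.4% were called higher and 21.4% lower in that comparison. The median log2 change of the members was +0.75 (+0.71 with ORC1, dim in scramble, at its lower bound), against −0.02 over all genes. ORC1 was measured only through the sh-35 arrays, and without it 37 of 42 members were higher. The 3 sh-35 arrays lay above all 3 scramble arrays for 38 members, where 25.3% of all genes did so. Array by array, the median member stood 0.728, 0.780 and 0.736 log2 units above the scramble mean with sh-35, against 0.124, 0.172 and 0.156 with sh-34 and −0.0289 to 0.0315 among the scramble arrays themselves. The rise was at least 2-fold for 8 members that were above background in scramble: CDT1, DTL, MCM2, MCM4, MCM5, PRIM1, TK1 and EXO1. Over all 8931 genes, those dim in scramble included, 283 were called higher with at least a 2-fold rise.

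With sh-34 the list moved less. Of the 43, 10 were called higher, 1 lower and 32 did not pass, where 19.0% of all genes were called higher and 18.5% lower, so the share of members called higher, 23.3%, was near the background. The median change was +0.16, against +0.02 over all genes, and no member changed 2-fold. Few genes did so on the whole array, where 110 of 8931 were called higher with at least a 2-fold rise. The sh-34 arrays lay above all scramble arrays for 15 members, where 26.1% of all genes did so. The count of 10 rested partly on the samples and the processing: it was 6 without scramble replicate 2, 6 without the filter on dim probes and 1 with the values of the deposited series matrix. Those matrix values are the deposited log2 signals shifted by a constant per probe, without normalization between arrays. Of the 11 members called in either direction, only PRIM1 passed under all 18 alternatives run.

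The hairpins differed directly as well. In sh-35 against sh-34, 36 members were higher, 1 was lower and 6 did not pass, where 20.7% of all genes were called higher and 22.0% lower. The median difference was +0.61, or +0.60 with ORC1 at its bound, and 35 of 42 members were higher without ORC1. The sh-35 arrays lay above all sh-34 arrays for 36 members, where 25.1% of all genes did so. For 13 members the 3 groups were fully separated, with sh-34 above scramble and sh-35 above sh-34 on every array, an order seen in 4.21% of all genes. The comparisons share samples and are given side by side, not as independent counts.

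**Figure D1:**
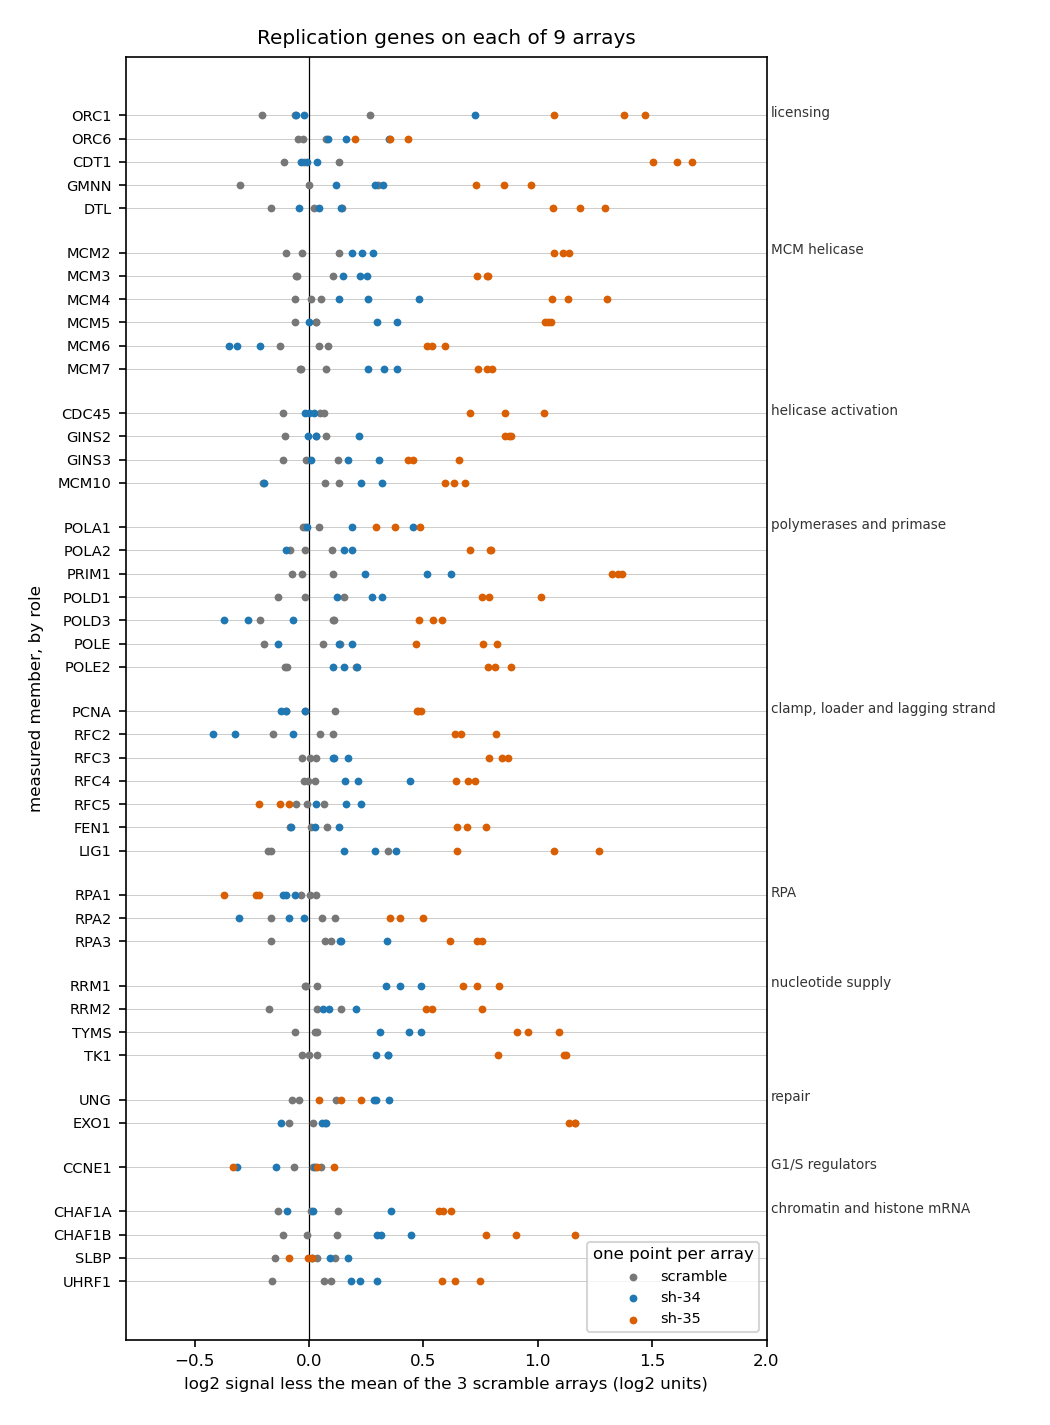
Each point is 1 array, placed at its normalized log2 signal less the mean of the 3 scramble arrays for that gene (x axis, log2 units); the 43 measured members are stacked by role (y axis). The orange sh-35 points lie to the right of the grey scramble points for 38 members, while the blue sh-34 points mostly lie near them; RPA1 and RFC5 run to the left with sh-35.

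Since E2F factors are known to drive most of these genes, the members' promoters were searched for E2F binding words. The 250 bases before the first listed start of each gene were read from RefSeq (GRCh38.p14), which held 43 of the 49 members. The words were TTTCCCGC, TTTCGCGC, TTTGCCGC and TTTGGCGC on either strand, and they can overlap each other. A promoter counted once however many words it held. At least 1 word stood in 15 of the 43 promoters of the list (34.9%) and in 14 of the 38 of measured members (36.8%). Among 7434 measured genes with an entry the share was 4.78%. An excess over all genes was built into a list of genes known to be driven by E2F, and says nothing of the hairpins. Of the 33 promoters of members called higher with sh-35, 14 held a word, or 42.4%. None of the 5 measured members that were not called higher with sh-35, UNG, SLBP, CCNE1, RFC5 and RPA1, had one. Whether the words go with the rise was not tested. Promoters of the mitotic list described further on carried the same words in 2 of 24 cases, but CCAAT in 20 of 24 and TTTGAA, the core of the CHR element, in 12 of 24. Members called higher with sh-35 had CCAAT in 17 of 33 (51.5%) and TTTGAA in 1 of 33 (3.03%). Of the 7434 measured genes, 36% had CCAAT and 8.66% had TTTGAA. A match is a description of the letters, not a binding site. The 4 sequences below are those of the printable members that rose most with sh-35 and held a word, with the word in capitals. They lie at chr16:88803539-88803788 (plus strand), chr1:212035498-212035747 (plus strand), chr19:48170345-48170594 (minus strand) and chr18:657403-657652 (plus strand), and each is written 5′ to 3′ along the gene, ending at the base before the start.
CDT1: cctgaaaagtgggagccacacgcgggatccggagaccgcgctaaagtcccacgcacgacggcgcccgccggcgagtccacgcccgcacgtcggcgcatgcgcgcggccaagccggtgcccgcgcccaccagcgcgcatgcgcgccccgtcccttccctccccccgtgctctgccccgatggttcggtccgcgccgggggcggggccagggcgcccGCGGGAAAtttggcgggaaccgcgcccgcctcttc
DTL: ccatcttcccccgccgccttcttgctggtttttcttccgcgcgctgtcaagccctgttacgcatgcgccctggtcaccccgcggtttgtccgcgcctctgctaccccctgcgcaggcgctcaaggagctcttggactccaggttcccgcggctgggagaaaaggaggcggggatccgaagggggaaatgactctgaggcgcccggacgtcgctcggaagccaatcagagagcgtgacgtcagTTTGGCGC
LIG1: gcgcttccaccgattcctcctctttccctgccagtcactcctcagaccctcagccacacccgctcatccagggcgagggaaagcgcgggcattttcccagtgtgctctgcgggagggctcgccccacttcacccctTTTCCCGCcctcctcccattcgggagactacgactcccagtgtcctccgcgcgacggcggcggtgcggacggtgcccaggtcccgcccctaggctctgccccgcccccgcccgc
TYMS: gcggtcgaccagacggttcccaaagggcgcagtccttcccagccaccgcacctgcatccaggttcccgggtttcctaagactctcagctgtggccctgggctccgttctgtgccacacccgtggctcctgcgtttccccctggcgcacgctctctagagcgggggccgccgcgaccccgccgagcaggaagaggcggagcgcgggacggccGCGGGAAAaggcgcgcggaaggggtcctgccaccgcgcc
The word starts 35 bases before the start in CDT1, 8 in DTL, 114 in LIG1 and 39 in TYMS. In DTL it therefore ends at the last base before the start. MCM6, whose values are given below, had 4 words, as 2 overlapping pairs.

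Origin licensing held the largest rise of the list. CDT1, which brings the MCM helicase to origins, read 8.43, 8.33 and 8.58 on the log2 scale in scramble, 8.48, 8.44 and 8.41 with sh-34, and 10.12, 10.05 and 9.95 with sh-35. The scramble and sh-34 arrays overlapped, and the sh-35 arrays stood well above both. The change was +1.60 with sh-35 (SE 0.09; limma adjusted p = 1.76e-07), or 3.02-fold, the rise ranked 54 among 8931 genes. With sh-34 it was −0.00 (95% interval −0.192 to 0.185). Genes whose proteins restrain CDT1 also rose with sh-35: DTL, which directs CDT1 to destruction on replicating DNA, by +1.18 (SE 0.10) and GMNN, the CDT1 inhibitor geminin, by +0.85 (SE 0.14). DTL read 8.31, 8.19 and 8.001 in scramble, 8.31, 8.12 and 8.21 with sh-34, and 9.23, 9.35 and 9.46 with sh-35, so the first 2 groups overlapped and the sh-35 arrays stood apart. Neither DTL nor GMNN passed with sh-34, at +0.05 and +0.24.

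The origin recognition subunits were less clear. ORC1 was above background on 0 of 6 scramble and sh-34 arrays and on all 3 sh-35 arrays, so it passed the filter only through sh-35 and its difference is a bound, at least 1.41-fold over scramble and at least 1.46-fold over sh-34. Against scramble, the bound sets its mean of 7.14 with sh-35 beside 6.64, the mean over the scramble arrays of each array's lowest signal above background. Its own mean there was 5.83. ORC6 was called higher with sh-35 on its bright probe, at +0.33 (SE 0.09; adjusted p = 0.0147), a call lost without scramble replicate 3, without sh-35 replicate 2, with median scaling and with the series matrix values. A dimmer ORC6 probe read +0.74 with sh-35 and −0.30 with sh-34, against +0.20 on the bright probe with sh-34. The probes lay far apart in level, at mean log2 signals of 8.39 (dimmer) and 13.7 (bright), and why they differ was not tested. CDC6, the partner of CDT1 in loading, was above background on 0 arrays and gave no fold.

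All 6 subunits of the MCM helicase, MCM2 to MCM7, rose with sh-35, by +0.55 to +1.16 (median +0.91). MCM2 read 8.50, 8.43 and 8.66 in scramble, 8.81, 8.72 and 8.76 with sh-34, and 9.67, 9.64 and 9.60 with sh-35. Its 3 groups were separated, and the step from scramble to sh-34, +0.23 (SE 0.08; limma adjusted p = 0.0424), was small beside that to sh-35, +1.11 (adjusted p = 1.36e-06). MCM4 and MCM5 rose by +1.16 and +1.05 with sh-35, MCM3 by +0.76 and MCM7 by +0.77. With sh-34, MCM7 gained +0.32 (SE 0.08; adjusted p = 0.00603), a call lost only with the series matrix values. MCM4 read +0.29 (adjusted p = 0.0427), and both that call and the one for MCM2 were lost in 11 of 18 alternatives.

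MCM6 was the exception within the helicase. It read 11.19, 11.01 and 11.22 in scramble, 10.79, 10.83 and 10.93 with sh-34, and 11.66, 11.74 and 11.68 with sh-35. The sh-34 arrays were all below scramble and the sh-35 arrays all above. MCM6 fell by 0.29 with sh-34 (SE 0.08; adjusted p = 0.0166) and rose by +0.55 with sh-35 (adjusted p = 0.000264), and the difference between hairpins was +0.84 (SE 0.08; adjusted p = 1.24e-05). The fall with sh-34 did not pass without scramble replicate 1, scramble replicate 3 or sh-34 replicate 1 (largest adjusted p = 0.0645).

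The factors that switch the helicase on rose with sh-35 in all 4 measured cases. GINS2 read 9.89, 10.03 and 10.07 in scramble, 10.22, 9.996 and 10.03 with sh-34, and 10.88, 10.85 and 10.87 with sh-35, where the arrays lay above both other groups. It gained +0.87 (SE 0.09), CDC45, the helicase cofactor, +0.86 (SE 0.09), MCM10, which helps to start unwinding, +0.64 (SE 0.13) and GINS3 +0.51 (SE 0.10). None passed with sh-34, where they ran from +0.00 to +0.16. GINS1 was above background on 0 arrays.

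Primase led the DNA-synthesizing enzymes. PRIM1, the catalytic subunit that lays down RNA primers, read 8.14, 8.18 and 8.32 in scramble, 8.83, 8.46 and 8.73 with sh-34, and 9.54, 9.56 and 9.58 with sh-35. The 3 groups did not overlap. PRIM1 was higher with sh-34 by +0.46 (SE 0.10; limma adjusted p = 0.00399), the largest sh-34 rise in the list, and by +1.35 with sh-35 (adjusted p = 1.44e-06). A second PRIM1 probe read +0.28 and +1.33.

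The polymerase subunits also rose with sh-35, all 7 measured genes with PRIM1 counted. The catalytic subunits POLD1 of polymerase delta, POLE of polymerase epsilon and POLA1 of polymerase alpha rose by +0.85, +0.68 and +0.38 (SE 0.10, 0.13 and 0.11). The accessory subunits POLE2, POLA2 and POLD3 rose by +0.83, +0.76 and +0.54. POLA1 was the weakest (adjusted p = 0.0151), was not called without sh-35 replicate 2, and did not pass against sh-34. POLD3 read −0.24 with sh-34 (adjusted p = 0.109) and was +0.77 higher with sh-35 than with sh-34 (adjusted p = 0.000171). PRIM2 was above background on 0 arrays, and POLD2 had no single-gene probe here.

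The sliding clamp gene also rose with sh-35. PCNA read 11.53, 11.31 and 11.40 in scramble, 11.31, 11.29 and 11.40 with sh-34, and 11.89, 11.90 and 11.89 with sh-35. It rose by +0.48 with sh-35 (SE 0.08; limma adjusted p = 0.000541) and read −0.08 with sh-34. The sh-35 arrays were tightly grouped and above the other 6. The other PCNA probes were near background, above it on 3 and 5 of 9 arrays, and when they were averaged with the bright probe the PCNA call was lost (adjusted p = 0.137).

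Among the clamp loader subunits, RFC3, RFC2 and RFC4 rose with sh-35 by +0.83, +0.71 and +0.69, while RFC5 did not. RFC5 read 9.21, 9.09 and 9.14 in scramble, 9.18, 9.38 and 9.31 with sh-34, and 8.93, 9.06 and 9.03 with sh-35. All 3 sh-35 arrays lay below the other groups, by −0.14 against scramble (SE 0.08; limma adjusted p = 0.180) and −0.28 against sh-34 (adjusted p = 0.0156). RFC5 was the 1 member called lower in that last comparison, a call lost without sh-34 replicate 2, without sh-35 replicate 1 and with the series matrix values. RFC2 read −0.27 with sh-34 (adjusted p = 0.0704). The lagging strand enzymes rose with sh-35, FEN1, which trims flaps, by +0.70 (SE 0.08) and LIG1, the ligase that seals the fragments, by +0.99 (SE 0.17). LIG1 had the widest spread of this role, at 7.59, 8.10 and 7.58 in scramble and 8.40, 9.03 and 8.83 with sh-35.

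The single-strand binding complex RPA was split. RPA1, its large subunit, read 11.60, 11.57 and 11.53 in scramble, 11.51, 11.47 and 11.45 with sh-34, and 11.35, 11.34 and 11.20 with sh-35. It fell by 0.27 with sh-35 (SE 0.08; limma adjusted p = 0.0120), the 1 member called lower in that comparison, and a second RPA1 probe fell by 0.35. RPA3 and RPA2, the smaller subunits, rose with sh-35 by +0.70 (SE 0.10) and +0.42 (SE 0.10). With sh-34 the RPA genes read −0.09, −0.14 and +0.20 for RPA1, RPA2 and RPA3, and none passed.

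**Figure D2:**
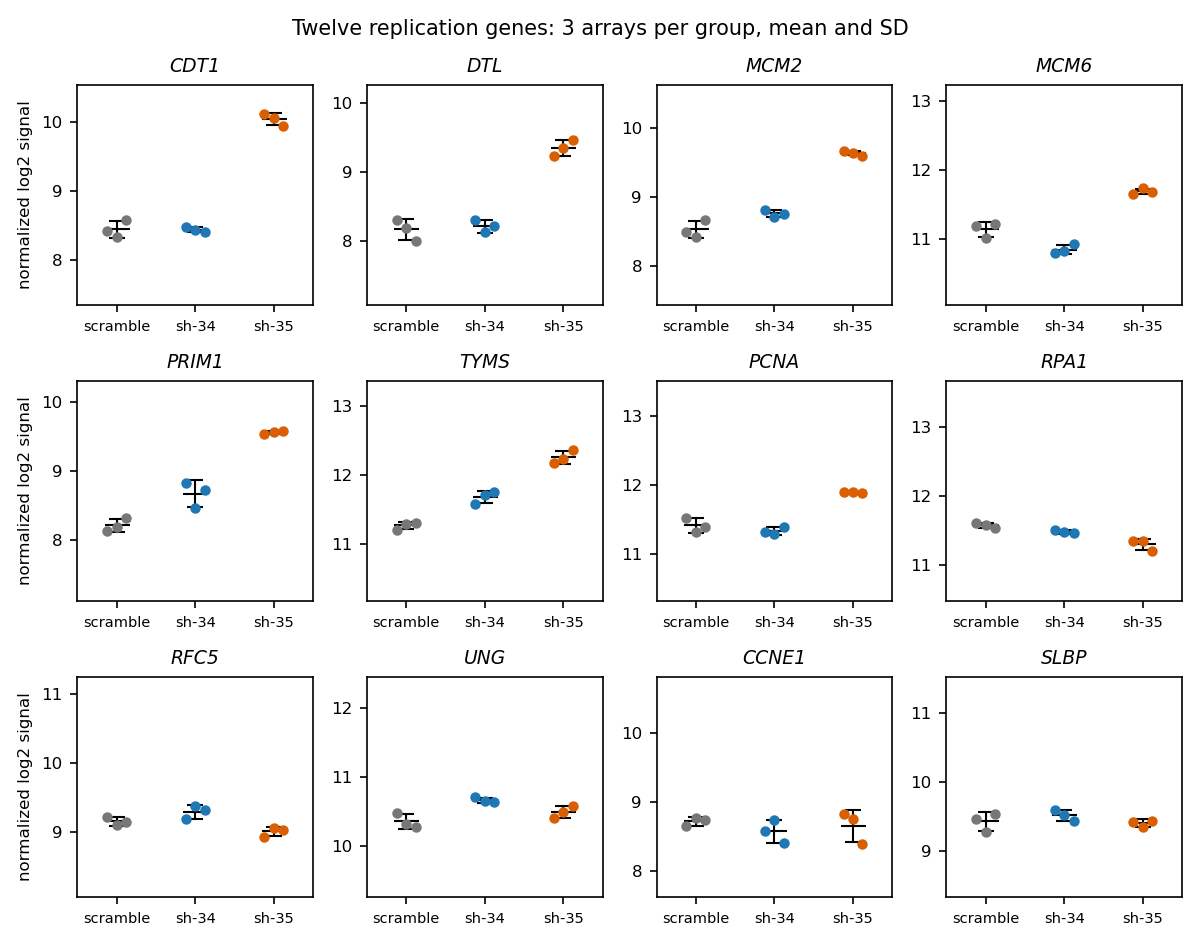
Normalized log2 signal (y axis, same span in every panel) of 12 members on 3 arrays per group (x axis); points are arrays, and the black mark and bar are the mean and SD. CDT1, DTL and PCNA step up only with sh-35, PRIM1 and TYMS rise by group, MCM6 dips with sh-34, RPA1 falls with sh-35, and CCNE1 and SLBP overlap in all groups.

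Nucleotide supply genes had the largest share of members called higher with sh-34 among roles of more than 2 measured genes, 3 of 4. Over all genes that share was 19.0%, and over all measured members 23.3%. The role is small and was singled out by this share, so the share is no evidence of an effect particular to it. TYMS, thymidylate synthase, read 11.20, 11.29 and 11.30 in scramble, 11.57, 11.70 and 11.75 with sh-34, and 12.18, 12.22 and 12.36 with sh-35. The groups were fully separated. TYMS was higher with sh-34 by +0.41 (SE 0.08; limma adjusted p = 0.00259) and +0.99 with sh-35 (adjusted p = 3.64e-06). RRM1, the large subunit of ribonucleotide reductase, rose by +0.41 and +0.75, and TK1, thymidine kinase, by +0.33 and +1.02. The sh-34 calls of these 3 genes were lost only with the series matrix values (adjusted p = 0.0563 to 0.101). RRM2, the small reductase subunit, rose with sh-35 (+0.60, SE 0.10) and read +0.12 with sh-34.

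The repair genes of the list went separate ways. EXO1, an exonuclease of mismatch repair, read 8.97, 9.13 and 9.07 in scramble, 9.13, 9.11 and 8.93 with sh-34, and 10.22, 10.22 and 10.19 with sh-35. Only the sh-35 arrays stood apart. EXO1 rose by +1.16 with sh-35 (SE 0.08; adjusted p = 1.13e-06) and read +0.00 with sh-34. UNG, which removes uracil from DNA, showed another order: 10.47, 10.31 and 10.28 in scramble, 10.70, 10.65 and 10.63 with sh-34, and 10.40, 10.49 and 10.58 with sh-35. The sh-34 arrays lay above the other 6, and scramble and sh-35 overlapped. UNG rose with sh-34, by +0.31 (SE 0.08; adjusted p = 0.0134) and read +0.14 with sh-35, but the difference between hairpins, −0.17, did not pass (adjusted p = 0.124). The UNG call was lost without scramble replicate 3 and with the series matrix values.

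Of the regulators of S-phase entry in the list, only CCNE1 could be measured. CCNE1, cyclin E1, read 8.65, 8.77 and 8.73 in scramble, 8.57, 8.75 and 8.40 with sh-34, and 8.83, 8.75 and 8.39 with sh-35. The groups overlapped, and the changes were −0.14 with sh-34 (95% interval −0.41 to +0.12) and −0.06 with sh-35 (−0.33 to +0.20). CCNE2 and E2F1 were above background on 0 arrays, so they gave no fold.

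Chromatin factors followed the replication enzymes except for SLBP. CHAF1B and CHAF1A, subunits of the assembly factor CAF-1 that places histones on new DNA, rose with sh-35 by +0.95 (SE 0.11) and +0.59 (SE 0.12). CHAF1B also rose with sh-34, by +0.35 (adjusted p = 0.0227), a call lost without scramble replicate 2, scramble replicate 3 or sh-34 replicate 2, without the filter on dim probes and with the series matrix values. CHAF1A was above background on 1 scramble, 2 sh-34 and 3 sh-35 arrays. UHRF1, which carries DNA methylation through replication, rose by +0.66 with sh-35 (SE 0.09). SLBP, which binds the stem-loop of histone messenger RNA, read 9.47, 9.29 and 9.55 in scramble, 9.60, 9.53 and 9.45 with sh-34, and 9.43, 9.35 and 9.45 with sh-35, with no separation and changes of +0.09 and −0.03.

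There were 15 dimmer probes of members beside the brightest ones, and 9 of them, each of another gene, were above background on all 9 arrays and gave a second reading of the same RNA. The other 6, of EXO1, MCM10, PCNA, RFC2 and RFC3, were below background on 1 or more arrays and are not compared. With sh-35 the paired probes of MCM3, FEN1, RFC4, PRIM1, RPA1 and SLBP lay within 0.1 of each other. Those of MCM4 (+1.16 and +0.63), MCM7 (+0.77 and +1.25) and ORC6 (+0.33 and +0.74) shared a direction and were further apart in size. With sh-34 the probes of MCM4 (+0.29 and −0.12) and ORC6 (+0.20 and −0.30) had opposite signs.

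**Figure D3:**
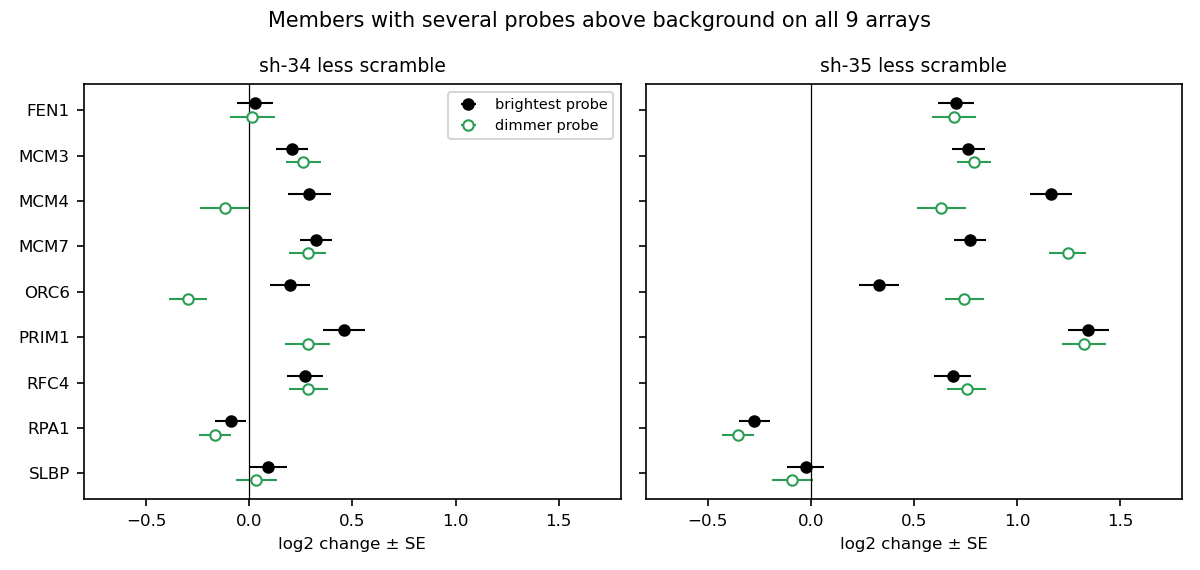
Log2 change against scramble with its SE (x axis) for the 9 members with a second probe above background on all 9 arrays (y axis), sh-34 on the left and sh-35 on the right; filled points are the brightest probe, open points the dimmer ones. With sh-35 the pairs lie right of 0 except those of RPA1 and SLBP, while for ORC6 and MCM4 with sh-34 the probes fall on both sides of 0.

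Replication factors outside the list moved in both directions. Of 32 further factors, 25 were measured, and 13 rose and 4 fell with sh-35 (median +0.35), while 2 rose and 2 fell with sh-34 (median −0.06). Of the 13, 4 were below background on every scramble array, which leaves 9 of 21. Of the 2 that rose with sh-34, 1 was below background on every scramble array, which leaves 1 of 21. Over all genes, 20.4% were called higher and 21.4% lower with sh-35, and 19.0% higher and 18.5% lower with sh-34. TIMELESS, a fork protection factor, rose by +1.23 with sh-35 and +0.38 with sh-34 (SE 0.08 each; adjusted p = 4.32e-07 and 0.00280), and CDC7, the kinase that activates MCM, by +0.94 with sh-35 (SE 0.11). DUT, which keeps uracil out of the nucleotide pool, and RNASEH2A, which removes RNA from DNA, rose by +0.62 and +0.74 with sh-35. DCTD, a deoxycytidylate deaminase, fell by 0.80 with sh-35 (SE 0.09). POLD4, a small subunit of polymerase delta singled out after its values were seen, fell with both hairpins, by 0.57 each (SE 0.10). Of 18 genes of replication-coupled chromatin and repair, 15 were measured, 11 rose and 1 fell with sh-35 (median +0.43), and 2 rose and 1 fell with sh-34. HELLS, a chromatin remodeller, rose by +1.27 with sh-35 (SE 0.14) and RAD51AP1, a recombination factor, by +1.25 (SE 0.08).

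Among regulators of G1, some genes moved with 1 hairpin and some in opposite directions. Of 25 listed, 20 were measured. With sh-35, 10 were higher and 5 lower, where 20.4% of all genes were called higher and 21.4% lower. With sh-34, 4 were higher and 7 lower, where 19.0% of all genes were called higher and 18.5% lower. Of the 7, RBL1 was above background on 0 sh-34 arrays and 1 scramble array, which leaves 6 of 19. The 4 higher with sh-34, or 20%, and the 5 lower with sh-35 were near those shares of all genes. E2F2, a transcription factor that activates S-phase genes, rose by +1.36 with sh-35 (SE 0.08; limma adjusted p = 2.61e-07) and read +0.05 with sh-34. CCND1, cyclin D1, fell by 0.99 with sh-34 (SE 0.08) and read +0.09 with sh-35, a difference of +1.08 (adjusted p = 2.3e-06). SKP2, which directs p27 to destruction, fell by 0.60 with sh-34 and rose by +0.30 with sh-35 (SE 0.07 each), and CCND3, cyclin D3, went the other way, at +0.35 and −0.87 (SE 0.09 each). CDKN1B, the p27 inhibitor gene, rose with both, by +0.60 and +1.05 (SE 0.10 each), and MYC fell with both, by 0.26 and 0.43 (SE 0.08 each). CDK2 and RB1 rose with sh-35 by +0.43 and +0.46 (SE 0.12 each) and did not pass with sh-34, at +0.08 and +0.27. CDKN1A, the p21 inhibitor gene, fell on its bright probe with both, by 0.41 and 0.53 (SE 0.07 each), but its dimmer probe read +0.33 and −0.10.

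Genes of G2 and mitosis, listed for comparison, had the larger median shifts. Of 30, 29 were measured, and 29 rose with sh-35, with a median of +1.41, against +0.75 for the replication members. With sh-34, 20 of 29 rose and 0 fell (median +0.33), beside 10 and 1 of the 43 replication members. In sh-35 against sh-34, 28 rose. Over all genes, 20.4% were called higher with sh-35, 19.0% with sh-34 and 20.7% in sh-35 against sh-34. The difference between the lists was not tested.

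**Figure D4:**
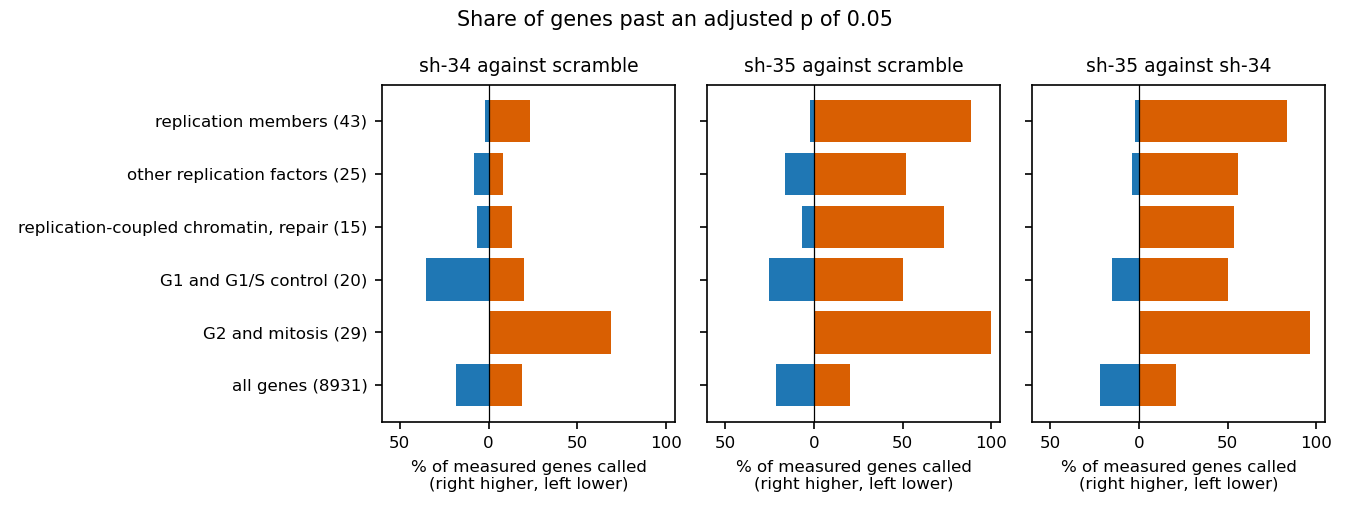
Percent of measured genes called higher (orange, to the right) or lower (blue, to the left) at an adjusted p under 0.05 (x axis) in each comparison, for the replication members, 4 further lists and all 8931 genes (y axis, number measured in brackets). For the replication members the orange share goes from 23.3% with sh-34 to 88.4% with sh-35, beside 19.0% and 20.4% of all genes.

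None of the members appears in the authors' deposited table of 358 probes. That table listed probes with at least a 1.4-fold change against scramble for both hairpins; 313 of its probes carry 1 gene symbol, and 0 are named for a member. In the deposited signals, without further normalization, 33 of the 43 members passed 1.4-fold with sh-35 and 0 with sh-34. The share of all genes past 1.4-fold in those signals was not counted. These counts therefore cannot be set against a background.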

How the data were processed

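Per the labels' protocols, total RNA of 9 samples was turned into biotinylated cRNA by Illumina's standard protocol. BeadStudio and Partek are the tools listed, without versions, in the submitters' processing notes. The deposited signal table gives an intensity and a detection p-value for 48803 probes, per the file headers. The deposited series matrix holds log2 values, equal to the log2 signal less the probe's median plus 5.62. They add no normalization between arrays to the deposited signals, and their array medians ran from 5.57 to 5.74. The authors' deposited table of 358 probes gives p-values, ratios and signed fold changes, the last kept as a score.

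Intensities were background corrected with limma 3.58.1 in R 4.3.3 (normal-exponential model from detection p-values, offset 16) and quantile normalized as log2. Probes detected in 3 or more arrays and carrying 1 symbol were kept, 1 brightest probe per gene. One limma model with 3 groups, 6 residual and 5.42 prior degrees of freedom gave all contrasts, with Benjamini-Hochberg adjustment over 8931 genes. The 48 members with a single-gene probe were matched by annotated symbol, 28098 probes having 1 symbol. The fit was tested on simulated data for sh-35 against scramble. There, 59% of 100 genes changed by 0.5 log2 units were recovered, and 99% of 100 changed by 1. The other 8731 genes were unchanged, while 3347 genes were called with sh-34 and 3731 with sh-35 in the real data. An adjusted p depends on how many genes change, so these shares do not give the recovery in the real data. No member changed by more than 0.46 with sh-34. A member not called there may still have changed. Dimmer probes were tested in a second fit over 11301 measured probes with 1 symbol. Alternatives covered normalization, background, filter, probe rule, a replicate block and each array left out. Deviations of equally numbered samples correlated by −0.024 to 0.0529, so numbers were not used as pairs. No array was left out. Members, lists and tests were chosen with earlier results of these data known. Any member could be named, and of each other list the 6 genes with the smallest p, plus CCND1, CDKN1A, CDKN1B, CDK2, RB1 and MYC. Members given in every sample were those with the largest changes in a role or opposing it. Promoters came from RefSeq; where several starts are listed, the first was used. The number of arrays limits precision.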

Additional observations from a re-analysis of the deposited data

Results flagged for a closer look

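Of the 43 measured members, 37 differed between the hairpins in the direct test, 36 higher and 1 lower with sh-35. In the same test, 20.7% of all genes were called higher with sh-35 and 22.0% lower, so differences between the hairpins were common over the whole array. For 2 readings the hairpins were called in opposite directions against scramble. MCM6 was lower with sh-34 and higher with sh-35, a difference of +0.842 (SE 0.0827; limma adjusted p = 1.24e-05). The dimmer ORC6 probe, at −0.297 with sh-34 and +0.744 with sh-35, differed by +1.04 (SE 0.0937; adjusted p = 8.95e-06), while the bright ORC6 probe differed by +0.132 and did not pass (adjusted p = 0.286 in the fit over genes).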

How the results depend on the processing

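The counts of members called higher with sh-35 stayed at 36 to 39 against scramble and 34 to 37 against sh-34 over 18 alternatives, and the counts of all genes called stayed within 1.5 times. The sh-34 count of 10 higher was 1 with the series matrix values and 6 without the filter on dim probes, and 6 to 10 when 1 array was left out. Members called lower with sh-34 numbered 2 with the mean over probes, which takes in probes near background, and 0 to 2 with 1 array left out. Members lower in sh-35 against sh-34 numbered 3 with median scaling, 2 with the mean over probes, 0 with the series matrix values and 0 to 1 with 1 array left out. With a replicate block, 9 members were higher with sh-34, 38 with sh-35 and 36 in sh-35 against sh-34; MCM2 and MCM4 lost their sh-34 calls and UHRF1 gained one. The labels do not say that equal numbers share a culture or day, and why these calls changed was not tested. The share of called genes that were higher in sh-34 was 50.6%, but 37.8% in the series matrix values; in sh-35 against sh-34 it was 48.6% and 60.4%. Among the recomputed member changes, 54 lost and 19 gained a call, and 31 crossed 0 without a call on either side. With cyclic loess, CDT1, CDC45 and EXO1 read 0.00829, −0.00600 and −0.0138 with sh-34, and SLBP 0.0104 with sh-35. With median scaling, CDT1, CDC45, FEN1 and EXO1 read 0.0199, −0.0128, −0.00701 and −0.0136 with sh-34. With the series matrix values, CDC45, FEN1 and EXO1 read −0.0664, −0.0603 and −0.0670 with sh-34. ORC6 read −0.0491 with sh-34 under the mean over probes. Leaving out 1 array moved the sh-34 change of CDT1 from −0.0591 to 0.0623, CDC45 from −0.0558 to 0.0347, EXO1 from −0.0401 to 0.0671, FEN1 from −0.0264 to 0.0801, POLE from −0.0362 to 0.160, DTL from −0.0348 to 0.119, ORC1, below background in both groups, from −0.0401 to 0.352 and CHAF1A from −0.0395 to 0.190. In the same way SLBP with sh-35 ran from −0.0995 to 0.0324, and CCNE1 from −0.149 to 0.0704 with sh-35 and from −0.00543 to 0.214 between hairpins. The cause of these shifts was not tested. CDC6, GINS1, PRIM2, CCNE2 and E2F1 stayed below background on every array, which limits what can be said of them.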
